A study of Mus musculus with 6 samples.

Results

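The 10 genes of the Wnt signal around the central vein of the liver that are described here were chosen by gene name out of the 54532 genes in the count table. They are the ligands Wnt2 and Wnt9b, the amplifier Rspo3, the receptor gene Lgr5, the feedback genes Axin2, Rnf43 and Znrf3, the transcription factor gene Tbx3, and the hepatocyte genes Glul and Lect2. All 10 names were found, each on a single row.

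The RNA came from the ischemic lobe of C57BL/6 mouse livers that had 1 h of warm ischemia followed by 12 h of reperfusion, a model of injury by a clamped and then reopened blood supply. In 3 libraries (IRF8-cKO-106, IRF8-cKO-71 and IRF8-cKO-88) the mice lacked interferon regulatory factor 8, IRF8, in hepatocytes, and in the other 3 (WT-14, WT-44 and WT-77) they were wild type. The injury was the same in both groups and no uninjured liver was analysed here, so the comparison is between genotypes within injured tissue. The Cre driver, the deleted part of Irf8, and the age and sex of the mice were not given in the sources used here. The labels do not say that the libraries of a group are separate animals, so p-values measure the spread between these libraries.

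In the liver lobule, endothelial cells of the central vein secrete WNT2, WNT9B and R-spondin 3, which act on the nearest hepatocytes. A Wnt ligand binds a Frizzled receptor together with LRP5 or LRP6, and beta-catenin then accumulates and switches on target genes with TCF and LEF factors. R-spondins bind LGR4 or LGR5 and remove RNF43 and ZNRF3, ubiquitin ligases that clear Frizzled from the cell surface. Among the genes that hepatocyte beta-catenin drives are Axin2, Lgr5, Tbx3, Rnf43, Znrf3, Glul and Lect2.

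Values of a gene are given throughout in ascending order of the library number within each group. Each library held 14758237 to 16805830 gene counts, and all levels below are CPM, counts scaled to a common library total, after TMM adjustment, with factors of 0.786 to 1.32. Irf8, the targeted gene, had 9.32, 9.50 and 10.3 CPM in WT and 5.67, 6.72 and 4.17 CPM in IRF8-cKO libraries. It was lower in every IRF8-cKO library, with a fitted log2 fold change of -0.81 and an SE of 0.33 (adjusted p = 0.174 by edgeR's quasi-likelihood test with Benjamini-Hochberg adjustment). The SE, here and below, was back-calculated from the log2 fold change and the F value of that test. Irf8 is also expressed by macrophages and dendritic cells, cells that a hepatocyte deletion does not target. In bulk tissue, fewer cells of a type and less RNA per cell cannot be told apart, here or for any gene below. Of the hepatocyte markers, albumin (Alb) alone had 46924 to 88708 CPM, a level typical of liver.

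Levels of different genes were compared per length, as RPKM, which divides by gene length as well as by library total. Glul, which encodes glutamine synthetase, had the highest median of the 10 over the 6 libraries, 279 RPKM (range 66.7 to 377). Lect2, a protein that hepatocytes secrete, followed at 54.4 RPKM (43.3 to 122). Then came Rspo3 at 3.17 RPKM (1.94 to 4.28), Rnf43 at 2.55 RPKM (0.649 to 3.74) and Tbx3 at 1.29 RPKM (0.680 to 7.90). Axin2 had a median of 0.993 RPKM, Znrf3 of 0.903 RPKM and Wnt2 of 0.626 RPKM. The lowest were Wnt9b at 0.102 RPKM (0.0382 to 0.246) and Lgr5 at 0.0725 RPKM (0.00601 to 0.505). Neighbours in this order overlapped in range, except Lect2 and Rspo3, so the order within the signalling genes is not firm.

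**Figure D1:**
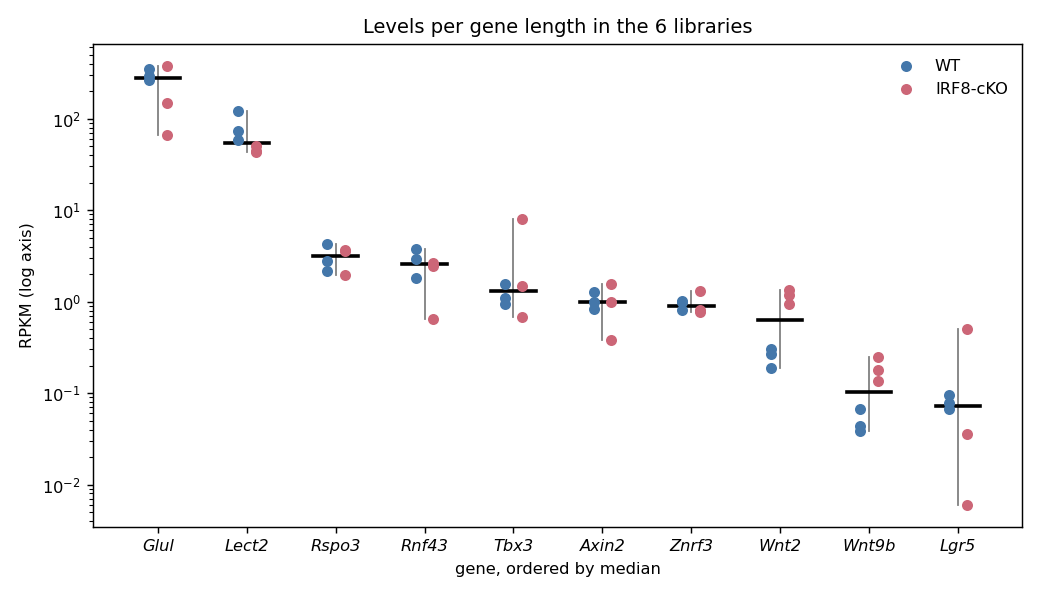
Level per gene length (RPKM, log axis) of the 10 genes in each of the 6 libraries, ordered by median (black bars); points are libraries coloured by group and grey lines span lowest to highest. Glul and Lect2 sit above 43.3 RPKM in every library, and the other 8 genes reach at most 7.90 RPKM.

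Every IRF8-cKO library had more Wnt2 than every WT library. The gene lies on the minus strand at chr6:17988940-18030585 (mm10). It had 7, 8 and 9 reads in WT libraries, and 49, 43 and 46 reads in IRF8-cKO libraries. Scaled, that was 0.429, 0.691 and 0.598 CPM against 3.02, 2.65 and 2.13 CPM, or a mean of 0.573 ± 0.133 against 2.60 ± 0.447 CPM (SD, n = 3). The fitted log2 fold change was 2.18 (SE 0.49), 4.53-fold. It did not pass the threshold of 0.05 (adjusted p = 0.0557 by edgeR's quasi-likelihood test, unadjusted p = 0.00117), and the exact permutation test over libraries gave p = 0.1, the smallest that 3 against 3 allows. Over 15 alternative fits the log2 fold change stayed between 2.00 and 2.40 and the adjusted p ran from 0.00419 to 0.221. It was under 0.05 in 3 of them, which were DESeq2 at 0.00419, edgeR without a low-count filter at 0.0167 and edgeR without IRF8-cKO-88 at 0.0414. These 3 fits also called the most genes of all, 1423, 1723 and 1205 in that order, against 182 in the main test.

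Wnt9b followed the same order at a lower level. It lies on the minus strand at chr11:103727364-103749821 (mm10) and had 5, 2 and 3 reads in the WT libraries (0.306, 0.173 and 0.199 CPM) against 10, 13 and 24 reads in the IRF8-cKO libraries (0.617, 0.802 and 1.11 CPM). The means were 0.226 ± 0.0708 and 0.844 ± 0.250 CPM (SD, n = 3), and every IRF8-cKO library was above every WT library (exact permutation p = 0.1). So few reads left Wnt9b under the low-count filter and outside the main test. Without that filter its log2 fold change was 1.87 (SE 0.88, adjusted p = 0.213 by edgeR's quasi-likelihood test). At this depth its size is poorly known.

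The 250 bases before the RefSeq start sites of both ligand genes are printed because these 2 genes were higher in every IRF8-cKO library. The sequences are from RefSeq on build GRCm38.p6, read 5′ to 3′ on the minus strand, at chr6:18030446-18030695 for Wnt2 and chr11:103749822-103750071 for Wnt9b. The RefSeq start of Wnt2 lies inside the gene as the count table bounds it, so 140 bases of its window are within those bounds.
Wnt2: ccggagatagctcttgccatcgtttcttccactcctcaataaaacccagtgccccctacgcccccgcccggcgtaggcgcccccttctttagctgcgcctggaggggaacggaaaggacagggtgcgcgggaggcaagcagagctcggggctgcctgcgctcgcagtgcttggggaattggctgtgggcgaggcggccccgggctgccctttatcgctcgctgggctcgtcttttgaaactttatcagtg
Wnt9b: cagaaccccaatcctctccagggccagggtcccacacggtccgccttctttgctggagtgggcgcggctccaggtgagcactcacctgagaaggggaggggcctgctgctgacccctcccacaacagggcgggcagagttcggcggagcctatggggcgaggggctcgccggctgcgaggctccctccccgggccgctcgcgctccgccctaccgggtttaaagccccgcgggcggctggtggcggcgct
Both strands were searched for the TCF/LEF core word CTTTGAA, its variant CTTTGAT, the related form CTTTGTA or the related form CTTTGTT, and for GAAANNGAAA, a pair of GAAA words of the kind that interferon regulatory factors bind. Neither occurs in these windows, so nothing is in capitals. Of all 32851 RefSeq promoters of this length, 14.8% held a TCF/LEF word and 2.98% held GAAANNGAAA. A window without the letters says only that they are not in it. The Wnt9b window has 72.0% G or C and the Wnt2 window 63.6%.

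**Figure D2:**
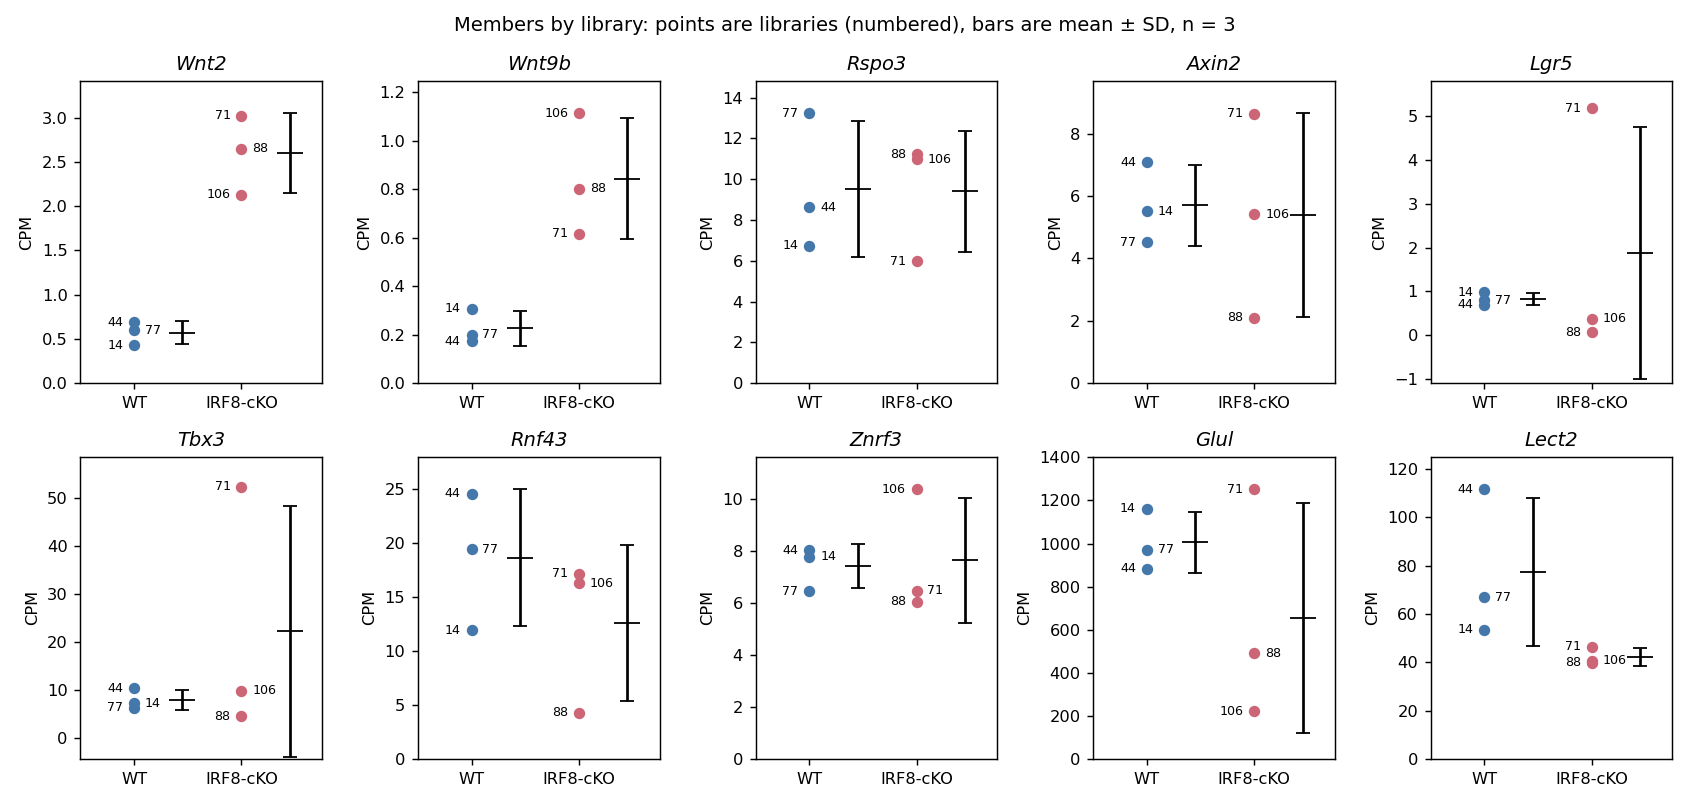
CPM of each of the 10 genes by library (points, numbered by library) with mean ± SD (n = 3) beside them; each panel has its own axis. The groups do not overlap for Wnt2, Wnt9b and Lect2, and IRF8-cKO-71 stands far above the other libraries for Lgr5 (5.18 CPM) and Tbx3 (52.4 CPM).

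The share of Wnt2 among the reads of all Wnt genes showed the same order. Of the 19 Wnt genes, 14 had a read and 5 had none, and 4 passed the low-count filter: Wnt2, Wnt4, Wnt5a and Wnt5b. Wnt2 made up 4.0% of 175 Wnt reads in WT-14 (exact Clopper-Pearson 95% interval 1.62% to 8.07%), 7.34% of 109 in WT-44 (3.22% to 13.95%) and 3.85% of 234 in WT-77 (1.77% to 7.18%). In the IRF8-cKO libraries it made up 21.0% of 233 (16.0% to 26.8%), 19.7% of 218 (14.7% to 25.6%) and 15.5% of 297 (11.6% to 20.1%). The intervals cover counting error only, and no WT interval reaches an IRF8-cKO share. The intervals of WT-44 (up to 13.95%) and IRF8-cKO-106 (from 11.6%) do overlap. This ratio needs no scaling between libraries, and it was chosen after the Wnt2 values were seen. It reuses the Wnt2 reads given above, so it is no separate evidence of a difference.

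Summed endothelial marker levels overlapped between the groups. The summed level of 10 pan-endothelial genes was 146 to 204 CPM in WT and 125 to 167 CPM in IRF8-cKO libraries, that of 12 sinusoidal genes 181 to 250 and 194 to 269 CPM, and that of 6 central vein genes 169 to 248 and 113 to 245 CPM. None of these 28 markers was at 0 in any library, and 0 passed edgeR's test, with 9 at an unadjusted p under 0.05, where DESeq2 called 4 and limma-voom 0. Over all tested genes 24.1% reached that unadjusted p, and DESeq2 called 11.3% of the genes it tested. Of the 12 sinusoidal genes 10 had a positive log2 fold change, with a median of 0.42, 3 being higher and 1 lower at an unadjusted p under 0.05. The most abundant of them by mean, the hyaluronan receptor Lyve1, ran the other way (log2 fold change -1.09, adjusted p = 0.131 by edgeR). Of the 6 central vein genes 2 had a positive and 4 a negative log2 fold change, with a median of -0.39. Fabp4, a fatty acid binding protein and the most abundant of these, had 79.9, 97.1 and 89.6 CPM in WT and 201, 157 and 74.5 CPM in IRF8-cKO libraries (log2 fold change 0.70, adjusted p = 0.258 by edgeR). The pan-endothelial genes had a median of -0.09, 4 positive and 6 negative, and ran from -1.54 to 1.63. Of these 10 genes 2 were higher and 2 lower at an unadjusted p under 0.05 by edgeR, and DESeq2 called 3. Per 1000 pan-endothelial counts, Wnt2 stood at 2.81, 4.74 and 2.93 in WT and at 18.2, 21.2 and 12.8 in IRF8-cKO libraries. Wnt9b stood at 2.00, 1.19 and 0.978 against 3.71, 6.39 and 6.67. Neither ligand overlapped between groups on this scale, nor per 1000 sinusoidal or central vein counts. The denominators were chosen after the values were seen. These ratios reuse the ligand reads given above, so they are no separate evidence of a difference.

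Rspo3, the amplifier, did not differ between the groups beyond the spread of the libraries. It lies on the minus strand at chr10:29452416-29535867 (mm10) and had 6.74, 8.63 and 13.2 CPM in WT and 5.98, 11.2 and 10.98 CPM in IRF8-cKO libraries. The groups overlapped throughout, and the log2 fold change was -0.02 (SE 0.38, adjusted p = 0.981 by edgeR's quasi-likelihood test). Leaving out a library moved it between -0.22 (without WT-14) and 0.29 (without WT-77). Per 1000 pan-endothelial counts Rspo3 stood at 44.1, 59.3 and 64.8 in WT and at 36.03, 89.5 and 65.9 in IRF8-cKO libraries. Rspo1, Rspo2 and Rspo4 had no read in any library, so Rspo3 was the only R-spondin gene detected.

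Lgr5, an R-spondin receptor that is also a target, lies on the minus strand at chr10:115450311-115587780 (mm10). Its 16, 8 and 12 reads in WT libraries stood against 84 in IRF8-cKO-71, 1 in IRF8-cKO-88 and 8 in IRF8-cKO-106. That was 0.981, 0.691 and 0.797 CPM against 5.18, 0.0617 and 0.371 CPM. IRF8-cKO-71 was above all WT libraries, and the other 2 IRF8-cKO libraries were below all of them. The log2 fold change of 1.16 (SE 1.16, adjusted p = 0.566 by edgeR's quasi-likelihood test) therefore rested on IRF8-cKO-71. Without that library it was -1.82, and without IRF8-cKO-88 it was 1.72.

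Tbx3, a transcriptional repressor, split in a like way. It lies on the plus strand at chr5:119670669-119684724 (mm10) and had 7.23, 10.4 and 6.31 CPM in WT libraries. IRF8-cKO-71 had 52.4 CPM, IRF8-cKO-88 had 4.50 CPM, the lowest of all, and IRF8-cKO-106 had 9.87 CPM, within the WT range. The log2 fold change was 1.48 (SE 0.78, adjusted p = 0.276 by edgeR's quasi-likelihood test), -0.13 without IRF8-cKO-71 and 1.97 without IRF8-cKO-88. The antisense gene Tbx3os1, which shares 115 exon bases with Tbx3, had 113 reads over the 6 libraries, and the strand setting of the counting was not given in the sources used here.

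Axin2, a scaffold of the complex that degrades beta-catenin, lies on the plus strand at chr11:108920349-108950783 (mm10). It had 5.52, 7.08 and 4.52 CPM in WT libraries and 8.63, 2.10 and 5.42 CPM in IRF8-cKO libraries, so that IRF8-cKO libraries were both the highest and the lowest. Its log2 fold change was -0.08 (SE 0.49, adjusted p = 0.935 by edgeR's quasi-likelihood test), -0.58 without IRF8-cKO-71 and 0.30 without IRF8-cKO-88.

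The ligases that clear Frizzled receptors gave no difference that passed the test. Rnf43 lies on the plus strand at chr11:87662722-87735539 (mm10) and had 11.9, 24.5 and 19.4 CPM in WT against 17.1, 4.26 and 16.3 CPM in IRF8-cKO libraries. Only IRF8-cKO-88 lay below the WT range. The log2 fold change of Rnf43 was -0.56 (SE 0.49, adjusted p = 0.501 by edgeR's quasi-likelihood test), and -0.15 without IRF8-cKO-88. Znrf3 lies on the minus strand at chr11:5276324-5444847 (mm10) and had 7.78, 8.03 and 6.44 CPM against 6.47, 6.05 and 10.4 CPM, with IRF8-cKO-106 the highest. Its log2 fold change was 0.04 (SE 0.35, adjusted p = 0.950 by edgeR), and -0.23 without IRF8-cKO-106.

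Glul, whose protein makes glutamine from ammonia in the hepatocytes that border the central vein, lies on the plus strand at chr1:153899944-153909723 (mm10). It had 1162, 883 and 972 CPM in the WT libraries. IRF8-cKO-71 had 1253 CPM, IRF8-cKO-88 had 490 CPM and IRF8-cKO-106 had 222 CPM. The WT libraries stayed within 1.32-fold of each other, and the IRF8-cKO libraries spanned 5.65-fold, both the highest and the lowest value being theirs. The log2 fold change was -0.62 (SE 0.54, adjusted p = 0.498 by edgeR's quasi-likelihood test), -1.49 without IRF8-cKO-71 (adjusted p = 0.0877) and -0.20 without IRF8-cKO-106. Over 15 alternative fits its adjusted p ran from 0.0877 to 0.831.

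Lect2, named for its attraction of leukocytes, was the single target whose groups did not overlap. It lies on the minus strand at chr13:56542464-56548502 (mm10) and had 53.5, 112 and 66.8 CPM in WT against 46.4, 39.8 and 40.6 CPM in IRF8-cKO libraries. The means were 77.4 ± 30.5 and 42.3 ± 3.63 CPM (SD, n = 3). The log2 fold change was -0.87 (SE 0.31), with an adjusted p of 0.139 and an unadjusted p of 0.0196 by edgeR's quasi-likelihood test. It was -0.52 without WT-44 (unadjusted p = 0.120 by edgeR) and -0.60 with scaling by library totals (unadjusted p = 0.0923 by edgeR). Hepatocyte markers had a summed level of 102319 to 146392 CPM in WT and 77625 to 104682 CPM in IRF8-cKO libraries, with a median log2 fold change of -0.61 over 11 markers. None was at 0 in a library, and edgeR called 0 of them (3 at an unadjusted p under 0.05), DESeq2 2 and limma-voom 0. Neutrophil markers, whose summed level was 176 to 219 CPM in WT and 24.7 to 54.1 CPM in IRF8-cKO libraries, were lower in every IRF8-cKO library than in every WT library for 7 of 7 tested genes, all with an unadjusted p under 0.05. Of these edgeR called 3, DESeq2 6 and limma-voom 3, and Ly6g was at 0 in 1 library, IRF8-cKO-106. Over all tested genes, 28.9% did not overlap between groups and 24.1% had an unadjusted p under 0.05, in either direction. The part of either in the Lect2 difference was not tested.

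Glul and Lect2 are the members in whose promoter windows a searched word was found, so these are printed with the word in capitals. They are the 250 bases before the RefSeq start on build GRCm38.p6, read 5′ to 3′, at chr1:153899679-153899928 on the plus strand for Glul and chr13:56548539-56548788 on the minus strand for Lect2.
Glul: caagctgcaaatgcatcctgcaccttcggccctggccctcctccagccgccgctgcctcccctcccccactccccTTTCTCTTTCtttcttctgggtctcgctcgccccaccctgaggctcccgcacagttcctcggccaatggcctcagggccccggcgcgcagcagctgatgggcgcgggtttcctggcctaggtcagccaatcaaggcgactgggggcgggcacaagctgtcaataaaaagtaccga
Lect2: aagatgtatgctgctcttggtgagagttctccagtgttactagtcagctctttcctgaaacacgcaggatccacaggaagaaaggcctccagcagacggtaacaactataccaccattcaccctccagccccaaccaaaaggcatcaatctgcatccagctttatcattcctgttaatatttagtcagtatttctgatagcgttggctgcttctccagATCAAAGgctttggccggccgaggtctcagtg
In Glul the capitals mark GAAANNGAAA on the opposite strand, 175 to 166 bases before the start. In Lect2 they mark CTTTGAT on the opposite strand, 32 to 26 bases before the start. The windows of Axin2 and Rnf43 held neither word. Both Rnf43 windows lie, with all 250 bases, inside the gene as the count table bounds it. With 2.98% and 14.8% of all promoters holding such words, a match describes letters and is not a bound site.

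Several of the 7 targets differed widely among the IRF8-cKO libraries. IRF8-cKO-88 was the lowest of all 6 libraries in 6 of the 7 targets, and in 15.1% of all tested genes. The exception was Glul, lowest in IRF8-cKO-106. The margin of IRF8-cKO-88 was small for Lect2 (39.8 CPM against 40.6 CPM in IRF8-cKO-106) and for Znrf3 (6.05 CPM against 6.44 CPM in WT-77). IRF8-cKO-71 was the highest in 4 (Axin2, Lgr5, Tbx3 and Glul), and in 24.2% of all tested genes, WT-44 in 2 (Rnf43 and Lect2) and IRF8-cKO-106 in 1 (Znrf3). The highest IRF8-cKO library exceeded the lowest by 84.0-fold for Lgr5, where the lowest had 1 read, by 11.6-fold for Tbx3, by 4.12-fold for Axin2 and by 4.03-fold for Rnf43. Within WT these ratios were 1.42, 1.64, 1.57 and 2.06. Znrf3 spanned only 1.72-fold within IRF8-cKO and 1.25-fold within WT libraries. The IRF8-cKO ratio was the larger in 6 of the 7 targets and the smaller for Lect2, at 1.17-fold against 2.09-fold. It was also the larger in 62.9% of all tested genes. Wnt2 spanned 1.42-fold within IRF8-cKO and 1.61-fold within WT libraries, Wnt9b 1.80-fold and 1.77-fold, and Rspo3 1.88-fold and 1.96-fold.

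**Figure D3:**
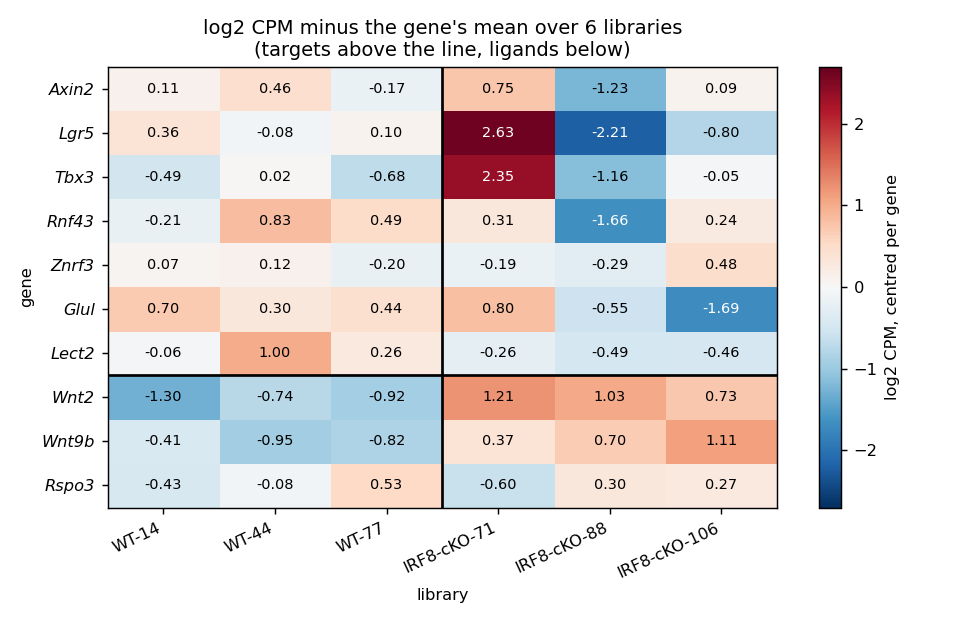
log2 CPM of each gene minus its own mean over the 6 libraries (colour and printed value), targets above the horizontal line and ligands with Rspo3 below it, WT left and IRF8-cKO right of the vertical line. IRF8-cKO-71 reaches 2.63 for Lgr5 and 2.35 for Tbx3, where IRF8-cKO-88 has -2.21 and -1.16, and Wnt2 and Wnt9b are above 0 in all 3 IRF8-cKO libraries.

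The members were also counted as a group. Of 9 tested members 0 passed edgeR's quasi-likelihood test at an adjusted p of 0.05, where 1.39% of all 13134 tested genes did (182 genes). At an unadjusted p under 0.05 there were 2 of 9, Wnt2 and Lect2, against 24.1% of all tested genes. The groups did not overlap for 2 of 9, again Wnt2 and Lect2, against 28.9% of all tested genes, and 1 of 9 was higher without overlap, against 14.4%. DESeq2 called 1 of 9, Wnt2, against 11.3% of the genes it tested, and limma-voom called 0. No result about the members as a group is read from these shares. The median log2 fold change of the 9 was -0.02, beside 0.03 for all tested genes. How many genes were called depended on single libraries: 1205 were called without IRF8-cKO-88, 20 without IRF8-cKO-106, 1 without WT-44 and 0 without WT-77.

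**Figure D4:**
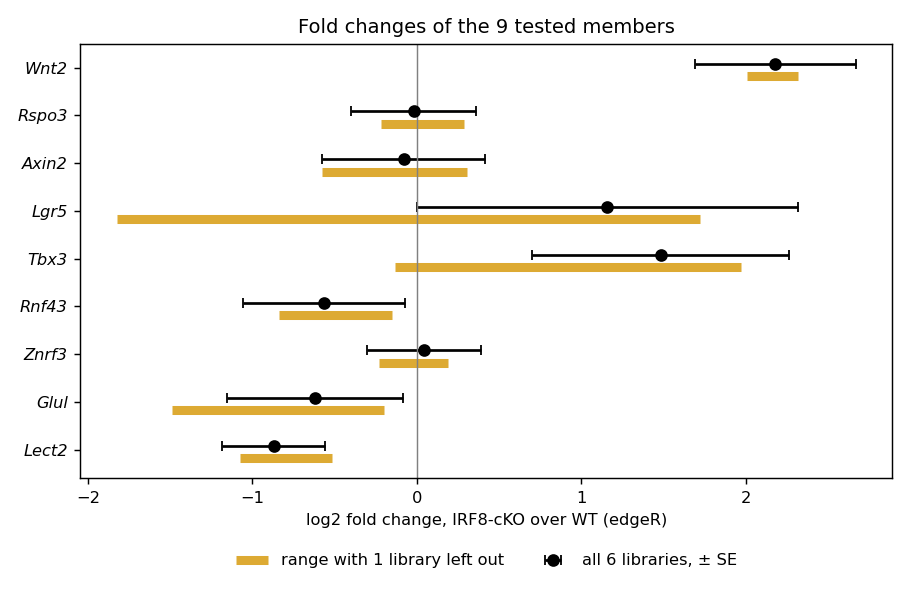
log2 fold change of the 9 tested genes, IRF8-cKO over WT, from edgeR with all 6 libraries (points, bars ± SE) and the range when each library is left out in turn (yellow). Wnt2 stays between 2.00 and 2.32, and the range of Lgr5 runs from -1.82 to 1.72.

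The rest of the pathway was read from lists of its parts taken from general knowledge. Over the 143 listed pathway and zonation genes, 0 of those tested were called by edgeR, with 23 at an unadjusted p under 0.05. Those 23 were 21.7% of the tested list genes, where 24.1% of all tested genes reached that p. DESeq2 called 14, among them Fzd8, Bcl9l, Myc, Cyp1a2, Cldn2 and Gls2, and limma-voom 0. Over all genes that DESeq2 tested it called 11.3%. No result about the lists as a group is read from these counts. Among the other ligands and secretion genes, 5 of 22 were tested, none at an unadjusted p under 0.05, with a median log2 fold change of -0.36. Wnt5b, mostly known for beta-catenin-independent signals, had 3.13, 1.47 and 1.59 CPM in WT and 7.58, 1.604 and 3.61 CPM in IRF8-cKO libraries, again highest in IRF8-cKO-71, and its log2 fold change of 1.04 was 0.35 without that library. Wls, which carries Wnt proteins to the cell surface, had a log2 fold change of -0.01 (adjusted p = 0.992 by edgeR).

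Of the receptor genes 12 of 17 were tested, and 2 were higher and 1 lower at an unadjusted p under 0.05, with a median of -0.22. Fzd8, a Frizzled receptor, had 17.8, 18.8 and 21.1 CPM in WT and 2.77, 8.39 and 8.34 CPM in IRF8-cKO libraries. Every IRF8-cKO library was below every WT library, and the fitted log2 fold change was -1.56 (SE 0.41, adjusted p = 0.0784 by edgeR). Lgr4, the R-spondin receptor that most hepatocytes carry, had 21.3 to 26.1 CPM in WT and 16.0 to 33.8 CPM in IRF8-cKO libraries, with IRF8-cKO-88 again lowest. The log2 fold changes of Fzd4 and Lrp6 were -0.45 and -0.24 (adjusted p = 0.471 and 0.681 by edgeR). Among secreted antagonists 4 of 15 were tested, with a median of -0.08. Notum, an enzyme that strips the lipid from Wnt proteins, had 2.76, 6.56 and 13.02 CPM in WT and 4.87, 1.54 and 1.95 CPM in IRF8-cKO libraries (log2 fold change -1.42, adjusted p = 0.198 by edgeR). It was -0.74 without WT-77 and -2.07 without IRF8-cKO-71.

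Inside the cell, 25 of 28 pathway genes were tested, with a median of 0.19, and 3 were higher and 3 lower at an unadjusted p under 0.05. Bcl9l, a co-activator that binds beta-catenin, had 5.15, 3.37 and 4.39 CPM in WT and 35.4, 8.08 and 19.7 CPM in IRF8-cKO libraries. Its groups did not overlap, and the fitted log2 fold change was 2.29 (SE 0.50, adjusted p = 0.0543 by edgeR), and 1.70 without IRF8-cKO-71. Ctnnb1, the gene of beta-catenin, had 122, 33.3 and 63.5 CPM in WT and 111, 128 and 185 CPM in IRF8-cKO libraries, and WT-14 overlapped the IRF8-cKO range (log2 fold change 0.96, adjusted p = 0.216 by edgeR, and 1.55 without WT-14). Apc and Tcf7l2 had log2 fold changes of 0.23 and 0.31 (adjusted p = 0.668 and 0.577 by edgeR).

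Of 15 other genes known as beta-catenin targets in various tissues, 11 were tested, 0 were higher and 3 lower at an unadjusted p under 0.05, and the median was -0.94. This list shares Tcf7 and Lef1 with the intracellular list, and Notum, Apcdd1 and Dkk1 with the secreted antagonists. Myc, a growth regulator with many inputs, had 56.0, 91.8 and 112 CPM in WT and 8.88, 31.8 and 20.7 CPM in IRF8-cKO libraries. Its log2 fold change was -2.08 (SE 0.46, adjusted p = 0.0554 by edgeR), and it was lowest in IRF8-cKO-71, where Lgr5 and Tbx3 were highest. Sox9 of this list is also a cholangiocyte marker. Those markers had summed levels of 465 to 948 CPM in WT and 149 to 258 CPM in IRF8-cKO libraries. Of 7 tested, 6 were lower at an unadjusted p under 0.05, which 24.1% of all tested genes reached in either direction. Cftr was at 0 in WT-44 and IRF8-cKO-71. The part of these markers in the list's median was not tested. Nkd1 and Ccnd1 had log2 fold changes of 0.38 and 0.80 (adjusted p = 0.557 and 0.309 by edgeR).

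Other hepatocyte genes of the pericentral zone did not move in 1 direction. All 26 were tested, 11 with a positive and 15 with a negative log2 fold change and a median of -0.12, and 1 was higher and 2 lower at an unadjusted p under 0.05. Cyp1a2, a cytochrome P450, had 311, 493 and 378 CPM in WT against 206, 206 and 228 CPM in IRF8-cKO libraries, without overlap (log2 fold change -0.89, SE 0.29, adjusted p = 0.118 by edgeR). Cldn2, a tight junction protein, had 98.4, 60.7 and 124 CPM against 162, 269 and 175 CPM, the opposite order (log2 fold change 1.09, adjusted p = 0.108 by edgeR). Cyp2e1, the P450 that oxidises ethanol, overlapped between groups (log2 fold change -0.29, adjusted p = 0.729 by edgeR).

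Glul and Oat, the gene of ornithine aminotransferase, share a narrow zone next to the central vein but were ordered differently across the libraries. Oat had 173, 490 and 376 CPM in WT and 608, 462 and 186 CPM in IRF8-cKO libraries. Oat was thus lowest in WT-14, where Glul was at its second highest, and both were at their highest in IRF8-cKO-71. The glutamate transporter gene Slc1a2, chosen after its values were seen, had 20.3, 124 and 140 CPM in WT and 154, 79.0 and 37.2 CPM in IRF8-cKO libraries, which overlap. Like Oat, it was lowest in WT-14 and highest in IRF8-cKO-71.

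At the portal end of the lobule, all 25 listed genes were tested and edgeR called 0, with 8 lower and 0 higher at an unadjusted p under 0.05 and a median of -0.56. DESeq2 called 6 of them and limma-voom 0. Gls2, the glutaminase that opposes Glul by splitting glutamine, had 117, 126 and 118 CPM in WT and 51.4, 51.7 and 62.0 CPM in IRF8-cKO libraries. Its groups did not overlap, and the fitted log2 fold change was -1.13 (SE 0.25, adjusted p = 0.0554 by edgeR). Cyp2f2 and Pck1 overlapped between groups (log2 fold change -0.74 and -0.66, adjusted p = 0.331 and 0.681 by edgeR), and without IRF8-cKO-71 the value for Pck1 was -2.47 (adjusted p = 0.0684). The difference between the pericentral and periportal medians was not tested.

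**Figure D5:**
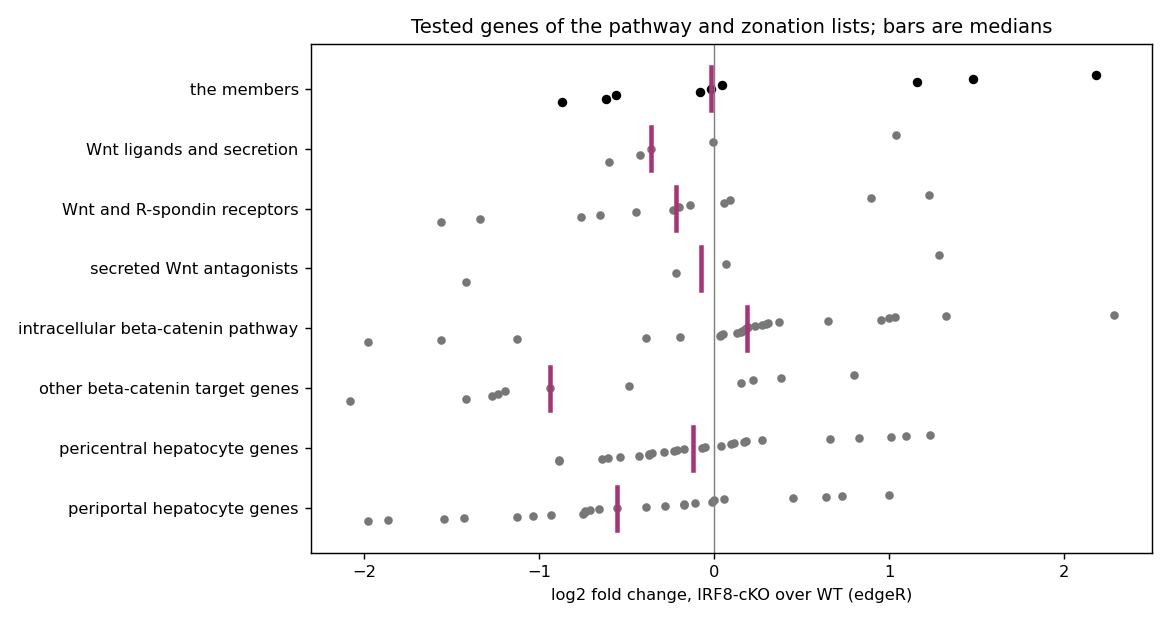
log2 fold change, IRF8-cKO over WT, of each tested gene in the pathway and zonation lists and of the 9 tested members (points), with list medians as bars. Medians run from -0.94 for other beta-catenin target genes to 0.19 for the intracellular pathway, and every list has genes on both sides of 0. Some genes of the other beta-catenin target list are also in the intracellular or antagonist list.

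The genes closest in profile to 3 members were found over the 6 libraries among 10354 protein-coding genes, by the root mean square difference of centred log2 CPM. For Rspo3 they were Arnt (0.0635), Nfx1 (0.0868) and Larp4b (0.110). For Axin2 they were Sdhaf3 (0.0703), Mfsd13a (0.138) and Tyms (0.139). Glul had no neighbour as close, the nearest being Sdsl (0.324), Slc17a2 (0.370) and Ifitm2 (0.375). With 6 points and so many candidates, this likeness is a description only.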

How the data were processed

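Gene counts came from bulk RNA libraries of total RNA from 6 injured liver lobes. The deposited table holds raw counts, which the authors did not normalise, with mm10 coordinates and gene lengths. HISAT2 2.0.5 and featureCounts 1.5.0-p3 are named, per the submitters' processing notes. The strand setting, multiply mapped reads and annotation release were not given in the sources used here. Each count column was tied to its library by title, and no per-sample column was left over (0). Counts of libraries within a group differed more than sampling allows, with a chi-square over its degrees of freedom of 63.1 to 224.

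Groups were tested in edgeR 4.0.16 (R 4.3.3): TMM scaling, filterByExpr (minimum count 10, total 15), a quasi-likelihood fit on group alone with robust shrinkage, a two-sided test, and Benjamini-Hochberg adjustment over all 13134 tested genes at 0.05. Log2 CPM used a prior count of 2. RPKM used the deposited gene lengths. The biological coefficient of variation was 37.1%, and the procedure was tested on simulated data. The other settings tried were scaling by upper quartiles, medians of ratios or library totals, no filter, 1 CPM in 3 libraries, DESeq2 1.42.0, limma-voom (limma 3.58.1), no robust shrinkage, removal of the 10 most abundant genes, and each library left out.

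The members and lists were chosen with earlier results of these data known. Besides Irf8 and the 10 members, named genes are the lowest p of each pathway list with 14 fixed pathway and zonation genes, the most abundant marker of each list and the nearest profiles; others are said to be chosen after their values were seen, as were Sox9, Ly6g, Cftr and the unread R-spondin genes. Promoters came from RefSeq (GRCm38.p6), where 6 of 10 members matched, with 7 promoters; Rspo3, Lgr5, Tbx3 and Znrf3 did not match. Exons of Axin2, Glul, Rspo3 and Tbx3 overlap other annotated genes.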

Additional observations from a re-analysis of the deposited data

How the results depend on the processing

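No paired analysis was possible because no library number occurs in both groups. The members' log2 fold changes rest on 3 libraries a group, a biological coefficient of variation of 37.1%, and few reads for Wnt2, Wnt9b and Lgr5. Over all named genes, 396 of the log2 fold changes from other settings and 249 from fits without a library kept their direction and their side of the threshold. In other settings 14 reversed, and 20 passed the threshold only there. Without a library 30 reversed, 6 passed the threshold only there and 3 no longer passed it. Most of these genes were not called in the main test, so keeping their side of the threshold says little. Where a value changed, the cause was not tested.

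Genes called, 182 in all (59 higher, 123 lower), became 82 (39 higher, 43 lower) with library totals, 1723 (817 higher, 906 lower) with no low-count filter, 1423 (613 higher, 810 lower) with DESeq2 and 111 (23 higher) with limma-voom. Members called, 0 by edgeR, were 1 with no low-count filter and 1 with DESeq2, Wnt2 in each. Pathway list genes called, 0 by edgeR, were 1 with upper-quartile scaling, 18 with no low-count filter and 14 with DESeq2. Without a library in turn, genes called ranged from 0 (without WT-77) to 1205 (without IRF8-cKO-88), those higher from 0 to 575 and those lower from 0 to 630. Members called ranged from 0 to 1 and pathway list genes called from 0 to 11, both highest without IRF8-cKO-88.

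Scaling by library totals moved the all-gene median of the log2 fold change from 0.03 to 0.25, and with it reversed Rspo3 to 0.24, Axin2 to 0.16, Lrp6 to 0.015, Wls to 0.20, Dcn to 0.059, Arnt to 0.19, Sdhaf3 to 0.094, Mfsd13a to 0.18 and Tyms to 0.00021. With no low-count filter Rspo3 was 0.0077 and Wls 0.016. With limma-voom Lgr5 was -0.61, Wls 0.037 and Larp4b -0.0052.

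Leaving out 1 library gave log2 fold changes of -0.22 to 0.29 for Rspo3, -0.58 to 0.30 for Axin2, -1.82 to 1.72 for Lgr5, -0.13 to 1.97 for Tbx3 and -0.23 to 0.19 for Znrf3. The ranges were -0.21 to 0.32 for Lgr4, -0.27 to 0.37 for Wls, -0.085 to 0.64 for Oat, -0.037 to 0.32 for Eng and -0.42 to 0.078 for Dcn. They were -0.26 to 0.25 for Arnt, -0.086 to 0.31 for Nfx1, -0.12 to 0.26 for Larp4b, -0.63 to 0.24 for Sdhaf3, -0.45 to 0.28 for Mfsd13a, -0.68 to 0.091 for Tyms and -0.76 to 0.16 for Slc17a2. Wnt2 stayed between 2.00 and 2.32 and Lect2 between -1.08 and -0.52. Wnt9b had 1.71 to 2.14 without WT-14, WT-44, WT-77 or IRF8-cKO-71, and fell under the filter without either of the other libraries.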

Other observations

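Wnt11, a ligand mostly known for signals that bypass beta-catenin, ran opposite to Wnt2 and Wnt9b. It had 4, 14 and 10 reads in the WT libraries and 1, 1 and 3 reads in the IRF8-cKO libraries, which left it under the low-count filter and without a test. It was chosen after its values were seen.

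Other cells of the lobule that take part in Wnt signalling were read from marker lists. Stellate cell markers had summed levels of 342 to 534 CPM in WT and 295 to 456 CPM in IRF8-cKO libraries, with a median log2 fold change of 0.09, 0 of 11 called by edgeR and 2 at an unadjusted p under 0.05. DESeq2 called 2 of these and limma-voom 0. Of the stellate markers 8 had a positive and 3 a negative log2 fold change, and the 2 at an unadjusted p under 0.05 were higher. Dcn, the most abundant of the stellate markers, had a log2 fold change of -0.15 (adjusted p = 0.797 by edgeR). Kupffer cell markers had summed levels of 101 to 125 CPM in WT and of 328, 227 and 109 CPM in the IRF8-cKO libraries. All 8 had a positive log2 fold change, 0 were called by edgeR and 2 by DESeq2, and limma-voom called 0, with 4 at an unadjusted p under 0.05. Clec4f, the most abundant by mean of these markers, had a log2 fold change of 0.96 (adjusted p = 0.165 by edgeR). Beside the counts of both lists, 24.1% of all tested genes had an unadjusted p under 0.05, and DESeq2 called 11.3% of the genes it tested.

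Of the most abundant markers of the remaining lists, the neutrophil gene S100a9 fell by 2.37 on the log2 scale (adjusted p = 0.0243 by edgeR). The call was lost without WT-44 (adjusted p = 0.146), WT-77 (0.152) or IRF8-cKO-106 (0.0554). Spp1 of the cholangiocyte list had -1.70 (adjusted p = 0.0606 by edgeR), Eng of the pan-endothelial list 0.14 (adjusted p = 0.779 by edgeR) and Alb -0.51 (adjusted p = 0.412 by edgeR).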
